A study of Danio rerio with 9 samples.

Results

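The genes of integrin and laminin subunits were compared between CCDC6-RET and BRAF(V600E) thyroid tumors of transgenic zebrafish. Members were rows of the deposited gene table whose symbol began with itga or itgb (leaving out the itgb1bp and itgbl genes) or with lama, lamb or lamc and a digit. The rule found 45 of 27158 genes, 32 of them integrin and 13 laminin genes, and used no measured value. RNA came from visible tumors of adult fish. The CCDC6-RET group held 4 libraries, numbered 2, 3, 5 and 6, and the BRAF(V600E) group held 5, numbered 1, 2, 3, 6 and 7. Each library is called a tumor below, though no label says that each came from a separate tumor or fish. Within a group, values follow these tumor numbers. Both oncogenes were driven by the zebrafish thyroglobulin promoter, which is active in thyroid follicle cells. The study's methods put the CCDC6-RET transgene into fish with a red thyroid reporter, while the BRAF(V600E) line came from an earlier model, so differences of line cannot be told apart from the oncogene. In the study's cohort for tumor onset the BRAF(V600E) fish had a mutant p53 besides, which no label states or denies for the sequenced fish, and which cannot be told apart from the oncogene. The same holds for dissection, fish age and sequencing run, which are not given in the sources used here.

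Integrins are receptors made of an alpha and a beta chain that cross the cell membrane and tie the cell's actin or keratin skeleton to the matrix outside. The pairing of chains sets what is bound: some pairs hold laminin, others collagen, fibronectin and related ligands with an RGD motif, or partners on other cells. Laminins are trimers of an alpha, a beta and a gamma chain, and they form the first sheet of the basement membrane on which epithelia, vessels and muscle fibers rest. In the thyroid such a membrane surrounds each follicle.

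Totals ran from 8662544 counts (CCDC6-RET tumor 3) to 13596477 counts (CCDC6-RET tumor 2), and the BRAF(V600E) libraries lay between these. Of all 18453 genes that passed the filter on low counts, 33.9% were called higher and 38.2% lower in CCDC6-RET tumors (72.1% in all, edgeR adjusted p under 0.05), so most genes were called. Scaling the libraries on 79 ribosomal protein genes in place of TMM moved the median log2 fold change of all genes to -0.645, against -0.0868, and the share of higher genes among calls to 25.6%, against 47.0%. Thyroid markers held 1.3% to 3.12% of counts in CCDC6-RET tumors and 0.268% to 2.25% in BRAF(V600E) tumors. Most of these counts were of tg, which was not called (12209.9 to 30054 CPM in CCDC6-RET and 2444 to 21275 CPM in BRAF(V600E) tumors). Of 12 thyroid markers 10 were higher in CCDC6-RET tumors and 0 lower. Among the 10, tshr had 59.7 to 198 CPM in CCDC6-RET and 2.81 to 7 CPM in BRAF(V600E) tumors. For pax2a the range was 716 to 1867 CPM in CCDC6-RET and 6.39 to 29.6 CPM in BRAF(V600E) tumors. Markers of other tissues were mostly lower in CCDC6-RET tumors, to differing extents. All tested markers fell for skeletal muscle (20 of 20), ionocytes (10 of 10), cartilage and bone (9 of 9) and red blood cells (8 of 8). For glia and neurons 7 of 9 fell (77.8%), and for endothelium 10 of 18 (55.6%), against 38.2% of all genes. Muscle markers made up 0.00245% to 0.00807% of counts in CCDC6-RET tumors and 0.79% to 2.45% in BRAF(V600E) tumors. In bulk RNA of this kind, fewer cells of a type and less RNA per cell cannot be told apart.

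Most subunit genes were lower in CCDC6-RET tumors. Of the 45 members 44 passed the filter. Of these 29 fell (65.9%, against 38.2% of all genes), 7 rose (15.9%, against 33.9%), and 8 were not called. Their median log2 fold change was -2.85, against -0.09 over all genes. Among 31 tested integrin genes 20 fell and 4 rose (median -2.86), and among 13 laminin genes 9 fell and 3 rose (median -1.81). The 2 groups of tumors did not overlap for 28 members that were lower and 4 that were higher in CCDC6-RET tumors, against 35.5% and 29.2% of all genes. The genes that rose were lama1, lama5 and lamb2 of the laminins and itga3b, itga5, itgb5 and itgb8 of the integrins. The plot of fold changes shows them beside the rest.

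**Figure D1:**
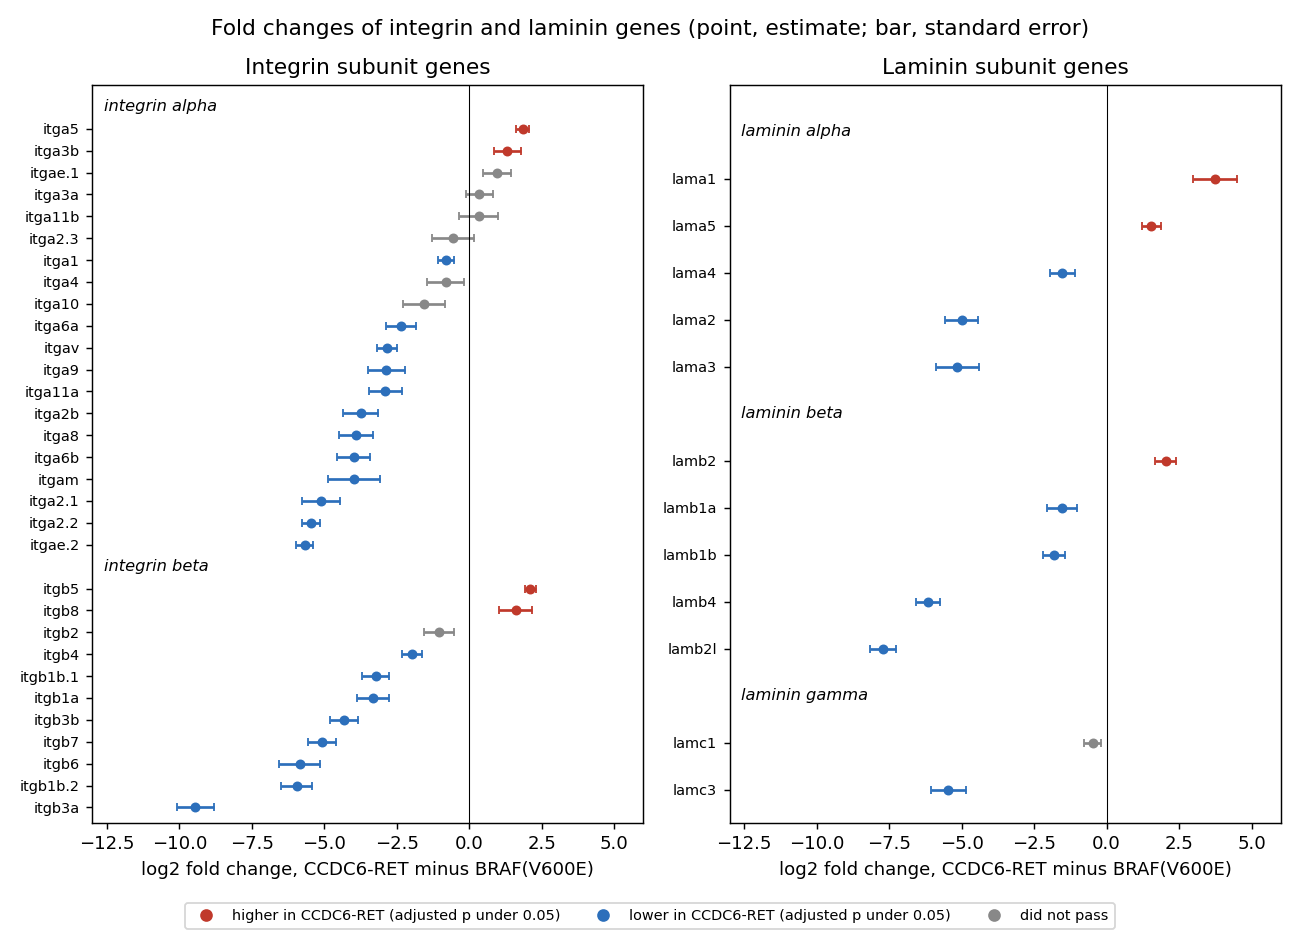
Log2 fold change (CCDC6-RET minus BRAF(V600E), x axis) of tested integrin genes (left) and laminin genes (right), ordered within each chain class; points are estimates, bars standard errors, and colors give the call at an adjusted p under 0.05. The 7 genes called higher lie to the right of 0 and those called lower to the left, the lowest being itgb3a at -9.45.

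Of the laminin alpha chains, lama5 and lama1 rose, and lama2, lama3 and lama4 fell. lama5 had 240.2, 469, 314 and 117 CPM in CCDC6-RET tumors, against 118, 107, 82, 106 and 72.9 CPM in BRAF(V600E) tumors (ENSDARG00000058543, GRCz10 chromosome 23, 9632364 to 9833730), with a log2 fold change of 1.55 ± 0.34 (SE, edgeR adjusted p = 0.00233). In other vertebrates laminin alpha 5 is the usual alpha chain of adult epithelial basement membranes. CCDC6-RET tumors 2, 3 and 5 lay above all BRAF(V600E) tumors, while CCDC6-RET tumor 6 lay within their range. Under ribosomal protein scaling the rise was smaller (0.94, adjusted p = 0.0203 by edgeR). Chain lama1, which in zebrafish embryos is needed for the notochord and eye, had 1.95 to 25 CPM in CCDC6-RET tumors and 0.174 to 1.26 CPM in BRAF(V600E) tumors. Its log2 fold change of 3.74 ± 0.77 (SE, edgeR adjusted p = 0.00169) rested in part on CCDC6-RET tumor 2 and was 2.62 without it. It is named here, like itgb8, as 1 of the few genes that rose and after its values were seen. lama3 had 0, 0.514, 0.244 and 0 CPM in CCDC6-RET tumors, against 8.34, 4.2, 6, 7.37 and 5.34 CPM in BRAF(V600E) tumors, with no overlap and a log2 fold change of -5.14 ± 0.73 (SE, edgeR adjusted p = 0.000162), or -6.07 without CCDC6-RET tumor 3. In mammals laminin alpha 3 joins beta 3 in the laminin below the epidermis. For lama2, the alpha chain of muscle basement membranes whose loss gives muscular dystrophy in zebrafish, 3 counts were found in all CCDC6-RET libraries and 159 in BRAF(V600E) libraries. BRAF(V600E) tumors thus had 37.6 times the scaled level of CCDC6-RET tumors (95% counting interval 12.6 to 184). Muscle markers moved with it, and their part was not tested.

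The beta chains split at 2 neighboring genes. lamb2 had 138, 29.4, 108 and 100 CPM in CCDC6-RET tumors, against 27.2, 25.5, 24.1, 17.3 and 20 CPM in BRAF(V600E) tumors (ENSDARG00000002084, GRCz10 chromosome 23, 20253816 to 20332147), and it rose by 2.04 ± 0.37 (SE, edgeR adjusted p = 0.000722) on the log2 scale. In mammals laminin beta 2 is found in the membranes of muscle synapses, vessels and kidney filters. lamb2l had 0.151, 0.771, 0.0812 and 0.286 CPM in CCDC6-RET tumors, against 65, 74, 47.8, 68.6 and 52.5 CPM in BRAF(V600E) tumors (ENSDARG00000033950, GRCz10 chromosome 23, 20335227 to 20399428), which put it at -7.71 ± 0.45 (SE, edgeR adjusted p = 1.63e-06), or -8.43 without CCDC6-RET tumor 3. The groups overlapped for neither gene, and the closest pair of values for lamb2 was 29.4 CPM in CCDC6-RET tumor 3 and 27.2 CPM in BRAF(V600E) tumor 1. The genes lie 3079 bases apart on chromosome 23 and are the only paralog pair of the set called in opposite directions. lamb4 had 1.21, 0.257, 0.487 and 0.381 CPM in CCDC6-RET tumors, against 41.4, 49.1, 59.4, 45 and 29.9 CPM in BRAF(V600E) tumors, which gave a log2 fold change of -6.16 ± 0.42 (SE, edgeR adjusted p = 2.91e-06), and -6.80 without CCDC6-RET tumor 2. This gene lies 3426 bases from lamb1a on chromosome 25.

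Chains lamb1a and lamb1b, of the laminins laid down first in zebrafish embryos, fell by less. lamb1a had 12.5, 32.4, 3.25 and 31.8 CPM in CCDC6-RET tumors, against 61.5, 58.6, 57.8, 54.6 and 56.6 CPM in BRAF(V600E) tumors, or, on the log2 scale, a change of -1.54 ± 0.53 (SE, edgeR adjusted p = 0.0244). Its call ended without CCDC6-RET tumor 2 (-1.33, adjusted p = 0.0734 by edgeR). lamb1b had 9.82, 22.3, 13.3 and 40.3 CPM in CCDC6-RET tumors, against 72.9, 57.5, 104, 66.7 and 75.3 CPM in BRAF(V600E) tumors, for a log2 change of -1.81 ± 0.39 (SE, edgeR adjusted p = 0.00218). Neither gene's groups overlapped. The row si:ch1073-15f12.3, which the rule did not take but which NCBI's current names give as lamb3, joined the falling chains. It had 1.21, 0, 0 and 0.0952 CPM in CCDC6-RET tumors, against 4.75, 26.3, 20.7, 18.3 and 11.3 CPM in BRAF(V600E) tumors. Its log2 fold change was -5.44 ± 0.95 (SE, edgeR adjusted p = 0.000611), or -8.54 without CCDC6-RET tumor 2, which held 16 of its 17 counts in that group.

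Of the gamma chains, lamc1 was not called and lamc3 fell. lamc1 had 162, 48, 114 and 125 CPM in CCDC6-RET tumors, against 167, 148, 153, 151 and 166 CPM in BRAF(V600E) tumors (ENSDARG00000036279, GRCz10 chromosome 2, 35898143 to 35996721). Laminin gamma 1 is a partner in most laminins. Its log2 fold change was -0.48 ± 0.28 (SE, edgeR adjusted p = 0.147), with the lowest value in CCDC6-RET tumor 3. It passed as lower under ribosomal protein scaling (-0.98, adjusted p = 0.0328 by edgeR) and without CCDC6-RET tumor 2 (-0.70, adjusted p = 0.0451). lamc3 had 0.831, 2.06, 0.0812 and 2.48 CPM in CCDC6-RET tumors, against 62.9, 61.1, 44.5, 69.2 and 52.5 CPM in BRAF(V600E) tumors, without overlap, at -5.46 ± 0.61 (SE, edgeR adjusted p = 3.7e-05). In mammals laminin gamma 3 is known from retina, brain and peripheral nerve.

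The genes lama3 and lamb3 thus both fell, and so did most epidermal markers. Of 15 tested markers of epidermis 13 fell (86.7%, against 38.2% of all genes) and 1 rose. The list held 0.327% to 0.525% of counts in CCDC6-RET tumors and 1.41% to 2.93% in BRAF(V600E) tumors. Most of its counts in CCDC6-RET tumors were of icn, which was not called (2587 to 3938 CPM, against 2073 to 2842 CPM in BRAF(V600E) tumors). The marker that rose, dsc2l, had 374 to 598 CPM in CCDC6-RET and 119 to 342 CPM in BRAF(V600E) tumors. Neither krt92 nor cyt1, the second below the filter, had a count in any CCDC6-RET tumor. The part of the epidermal markers in the result was not tested. Shares of counts within a chain class do not depend on how libraries were scaled. They are not corrected for gene length and were read only between tumors. The share of laminin alpha counts held by lama5 was 84.8% ± 12.4 in CCDC6-RET tumors and 50.3% ± 8.23 in BRAF(V600E) tumors (SD, n = 4 and 5). CCDC6-RET tumor 6, the lowest of its group at 67.3% (95% Wilson interval 65.1 to 69.4%, counting error only), exceeded the highest BRAF(V600E) tumor at 57.5%. A share also moves with the other chains of its class: in that tumor lama5 itself, at 117 CPM, lay within the BRAF(V600E) range, while lama4, at 52.3 CPM, lay below its range of 70.6 to 107 CPM in BRAF(V600E) tumors. For lamb2 the share of beta counts, with the lamb3 row included, was 65.8% ± 24.6 in CCDC6-RET tumors and 8.19% ± 1.32 in BRAF(V600E) tumors. The groups overlapped for neither of these chains.

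**Figure D2:**
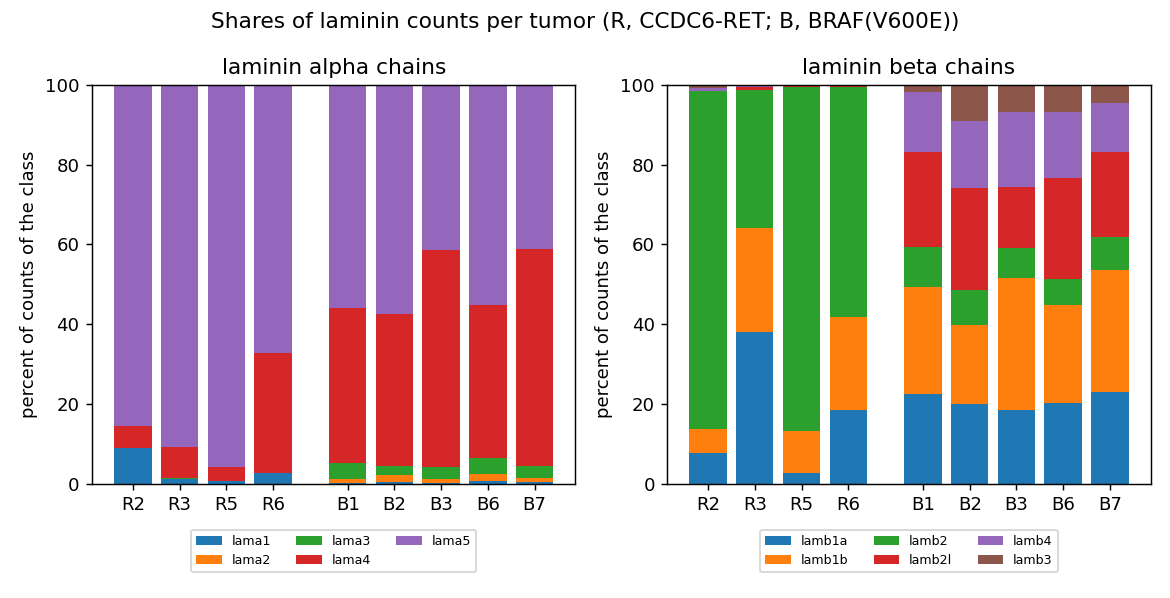
Percent of the counts of the laminin alpha and of the laminin beta chains (y axis) held by each gene in every tumor, with CCDC6-RET tumors (R2, R3, R5 and R6) left of BRAF(V600E) tumors (B1, B2, B3, B6 and B7); lamb3 is the row so named in the reference only. Chain lama5 holds 67.3% to 95.7% of alpha counts in CCDC6-RET tumors, against 41.2% to 57.5% in BRAF(V600E) tumors.

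lama4 had 15.6, 41, 11.7 and 52.3 CPM in CCDC6-RET tumors, against 81.8, 70.6, 107, 74 and 96.4 CPM in BRAF(V600E) tumors, and it fell by 1.52 ± 0.42 (SE, edgeR adjusted p = 0.00874) on the log2 scale. Laminin alpha 4 is the alpha chain typical of vessel walls and of fat and muscle. CCDC6-RET tumors 3 and 6 had higher values than CCDC6-RET tumors 2 and 5 for lama4, lamb1a and lamb1b alike. The endothelial markers, summed over 18 genes, were also higher in CCDC6-RET tumors 3 and 6 than in CCDC6-RET tumors 2 and 5, with 0.0212%, 0.0487%, 0.0201% and 0.0494% of counts in CCDC6-RET tumors, against 0.0585% to 0.0839% in BRAF(V600E) tumors. Of these markers 10 fell, 1 rose (plvapb) and 7 were not called, among them cdh5 and kdrl, and each had counts in at least 1 CCDC6-RET tumor. The order of tumors 3 and 6 above 2 and 5 was not particular to endothelium. Fibroblast markers held 0.0486%, 0.0804%, 0.0149% and 0.0582% of counts in CCDC6-RET tumors. Red blood cell markers held 0.0187%, 0.0613%, 0.00754% and 0.0762% there. Thrombocyte markers held 0.000934%, 0.00249%, 0.000278% and 0.00192% there. The other marker lists did not have that order. The part of any of these markers in the fall of these chains was not tested.

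**Figure D3:**
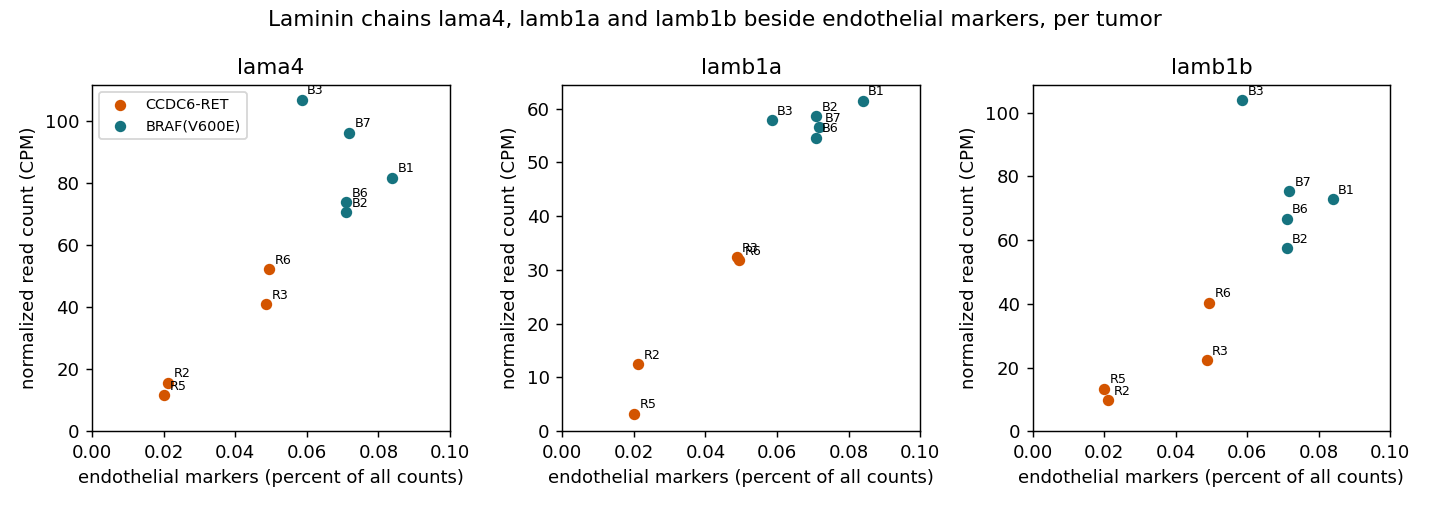
Normalized read count (CPM, y axis) of lama4, lamb1a and lamb1b against the summed share of 18 endothelial marker genes (percent of all counts, x axis), 1 point per tumor (R, CCDC6-RET; B, BRAF(V600E)). CCDC6-RET tumors 2 and 5 lie lowest on both axes for each gene, and all BRAF(V600E) tumors lie at or above 0.0585% on the x axis.

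The receptors that bind laminin, grouped like the other receptors after the values were known, gave 3 lower genes, 1 higher and 1 not called. The lower genes were 60.0% of the 5 tested, against 38.2% of all genes. Only 1 of the 5 was higher, against 33.9% of all genes. The gene itga6l was below the filter (at most 1.24 CPM in CCDC6-RET and 1.24 CPM in BRAF(V600E) tumors). itgb4 had 135, 143, 88.3 and 169.6 CPM in CCDC6-RET tumors, against 293, 932, 371, 535 and 485 CPM in BRAF(V600E) tumors (ENSDARG00000028507, GRCz10 chromosome 8, 13069045 to 13121882), at -1.97 ± 0.35 (SE, edgeR adjusted p = 0.000632). itga6b had 11, 15.4, 38.8 and 6.09 CPM in CCDC6-RET tumors, against 163, 467, 231, 247 and 304 CPM in BRAF(V600E) tumors (ENSDARG00000069946, GRCz10 chromosome 1, 30215219 to 30260789), at -3.98 ± 0.57 (SE, edgeR adjusted p = 0.000182), or -4.70 without CCDC6-RET tumor 5. Integrins alpha 6 and beta 4 pair into the receptor of hemidesmosomes, the spots that fix epithelial cells to the basement membrane. All CCDC6-RET tumors lay below all BRAF(V600E) tumors for both genes, and most epidermal markers moved the same way, as given above. The paralog itga6a was scarce. It had 0.0755, 0.514, 0.162 and 0.762 CPM in CCDC6-RET tumors, against 2.24, 1.79, 1.91, 1.62 and 1.75 CPM in BRAF(V600E) tumors. Its log2 fold change was -2.34 ± 0.52 (SE, edgeR adjusted p = 0.00265), or -2.99 without CCDC6-RET tumor 6.

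Integrin alpha 3, which pairs with beta 1 and in mammals binds the laminins of skin, lung and kidney, has 2 zebrafish genes here. itga3b had 46.1, 33.3, 115 and 19 CPM in CCDC6-RET tumors, against 26.5, 27.1, 14, 24.8 and 14.7 CPM in BRAF(V600E) tumors, with CCDC6-RET tumor 6 inside the range of BRAF(V600E) tumors. Its log2 fold change of 1.32 ± 0.47 (SE, edgeR adjusted p = 0.0286) did not hold under all alternatives. It missed the threshold under ribosomal protein scaling (0.79, adjusted p = 0.176 by edgeR) and without CCDC6-RET tumor 5 (0.62, adjusted p = 0.119), BRAF(V600E) tumor 3 (1.18, adjusted p = 0.0661) or BRAF(V600E) tumor 7 (1.19, adjusted p = 0.0637). Its paralog itga3a had 9.74 to 72.3 CPM in CCDC6-RET tumors and 26.2 to 44.8 CPM in BRAF(V600E) tumors and a log2 fold change of 0.35 ± 0.46 (SE, edgeR adjusted p = 0.504). Without CCDC6-RET tumor 2, its lowest value in that group, it passed as higher (0.71, adjusted p = 0.0282 by edgeR), and under ribosomal protein scaling its sign turned.

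Integrin beta 1 is the partner of most laminin, collagen and fibronectin binding alpha chains. All 3 of its rows in the set fell. itgb1a had 15.9, 1.16, 14 and 7.81 CPM in CCDC6-RET tumors, against 104, 90.3, 86.5, 88.1 and 117 CPM in BRAF(V600E) tumors, at -3.31 ± 0.56 (SE, edgeR adjusted p = 0.000493). itgb1b.1 had 16.9, 2.83, 15.4 and 8.85 CPM in CCDC6-RET tumors, against 119.5, 123, 75.9, 119 and 83.9 CPM in BRAF(V600E) tumors, at -3.23 ± 0.46 (SE, edgeR adjusted p = 0.000163). itgb1b.2 had 0.227, 0, 0.487 and 0.381 CPM in CCDC6-RET tumors, against 16, 12.7, 18.5, 14 and 31.7 CPM in BRAF(V600E) tumors, at -5.95 ± 0.54 (SE, edgeR adjusted p = 1.23e-05). No tumor of 1 group reached into the range of the other for any of them, and CCDC6-RET tumor 3 was lowest of its group in each. The rows itgb1b.1 and itgb1b.2 share 14234 bases of chromosome 2, and a further row outside the rule, CABZ01058720.1, bears the name ITGB1 in the reference, so reads may have been divided between rows. Their sum was therefore read as well. Over the 4 rows it was 63.8, 8.35, 50 and 44.8 CPM in CCDC6-RET tumors (mean 41.8 ± 23.7, SD, n = 4), against 319, 306, 244, 292 and 299 CPM in BRAF(V600E) tumors (mean 292 ± 28.6, SD, n = 5), with no overlap.

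Receptors of fibronectin and other RGD ligands, a class also formed after the values were known, gave 3 rises and 6 falls. Of these 9 genes 33.3% were higher, about the share of all genes (33.9%), so rises were not in excess here. Lower were 66.7%, against 38.2% of all genes. itga5 had 208, 139.7, 101 and 199.7 CPM in CCDC6-RET tumors, against 45.6, 39.6, 46, 55.4 and 40.4 CPM in BRAF(V600E) tumors (ENSDARG00000006353, GRCz10 chromosome 23, 33521094 to 33631630), at 1.84 ± 0.22 (SE, edgeR adjusted p = 5.15e-05). Integrin alpha 5 with beta 1 is the main fibronectin receptor, needed in zebrafish embryos for the first somites. itgb5 had 275, 146, 226 and 189 CPM in CCDC6-RET tumors, against 51.8, 45.4, 43.5, 43.9 and 57.5 CPM in BRAF(V600E) tumors (ENSDARG00000012942, GRCz10 chromosome 9, 22866634 to 22937146), at 2.11 ± 0.19 (SE, edgeR adjusted p = 1e-05). In mammals integrin beta 5 pairs with alpha v and binds vitronectin. All 4 CCDC6-RET tumors lay above all 5 BRAF(V600E) tumors for both genes, and both calls held under every alternative tried. The partner chain of itgb5 moved the other way. itgav had 50.6, 14.5, 35.3 and 44.3 CPM in CCDC6-RET tumors, against 253, 309.9, 259, 281 and 192 CPM in BRAF(V600E) tumors, at -2.84 ± 0.34 (SE, edgeR adjusted p = 5.78e-05), without overlap. The third rise, itgb8, was of a scarce gene with overlapping groups (0.642 to 5.21 CPM in CCDC6-RET tumors and 0.632 to 1.43 CPM in BRAF(V600E) tumors). Its log2 fold change of 1.60 ± 0.56 (SE, edgeR adjusted p = 0.0272) did not pass under ribosomal protein scaling (1.15, adjusted p = 0.129 by edgeR). It also missed the threshold without CCDC6-RET tumor 2 or 5 (edgeR adjusted p = 0.0913 and 0.0705) and without BRAF(V600E) tumor 2, 3 or 6 (0.0617, 0.057 and 0.0649).

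The other alpha v partners fell. itgb6 had 2.57, 2.57, 0 and 0.762 CPM in CCDC6-RET tumors, against 81.2, 90.2, 97.2, 87.4 and 61.6 CPM in BRAF(V600E) tumors, at -5.85 ± 0.72 (SE, edgeR adjusted p = 6.58e-05). In mammals integrin beta 6 is made by epithelia, and with alpha v it releases active TGF-beta, as beta 8 does. itgb3b had 1.36, 0.128, 0.325 and 1.05 CPM in CCDC6-RET tumors, against 16.2, 14.5, 12.9, 16.6 and 15.1 CPM in BRAF(V600E) tumors, at -4.32 ± 0.48 (SE, edgeR adjusted p = 3.76e-05). itgb3a had 0, 0.128, 0.0812 and 0 CPM in CCDC6-RET tumors, against 27.9, 66.1, 31, 49.4 and 23.5 CPM in BRAF(V600E) tumors (ENSDARG00000056767, GRCz10 chromosome 3, 19471303 to 19499876), which was 2 counts against 2434 counts in all. The level in BRAF(V600E) tumors was thus 864 times that in CCDC6-RET tumors (95% counting interval 239 to 7138), and its fitted log2 fold change was -9.45 ± 0.64 (SE, edgeR adjusted p = 3.03e-06). itga8 had 0.982, 1.93, 0.0812 and 0.381 CPM in CCDC6-RET tumors, against 11.9, 13, 10.3, 13.1 and 12.2 CPM in BRAF(V600E) tumors, at -3.91 ± 0.59 (SE, edgeR adjusted p = 0.000237), or -4.59 without CCDC6-RET tumor 3. In mammals integrin alpha 8 with beta 1 binds nephronectin in the developing kidney. CCDC6-RET and BRAF(V600E) tumors did not overlap for any of these 4 genes.

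Integrin alpha 2b pairs with beta 3 into the fibrinogen receptor of platelets, and itga2b marks thrombocytes in zebrafish. itga2b had 1.51, 2.57, 0.487 and 4.86 CPM in CCDC6-RET tumors, against 57.3, 25.8, 26.9, 19.4 and 26.7 CPM in BRAF(V600E) tumors, at -3.74 ± 0.60 (SE, edgeR adjusted p = 0.000343), or -4.39 without CCDC6-RET tumor 6. BRAF(V600E) tumor 1 stood highest. All 7 tested thrombocyte markers fell too, against 38.2% of all genes. They held 0.000278% to 0.00249% of counts in CCDC6-RET tumors and 0.0362% to 0.142% in BRAF(V600E) tumors. Each had counts in at least 1 CCDC6-RET tumor. Their summed share was highest in BRAF(V600E) tumor 1 through f13a1b (1183 CPM there). Of the single markers f13a1b and mpl were highest in that tumor, the other 5 were highest in BRAF(V600E) tumor 7, and gp9 and gfi1b were lowest of the group in BRAF(V600E) tumor 1. Their part in the fall of itga2b and the beta 3 genes was not tested.

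**Figure D4:**
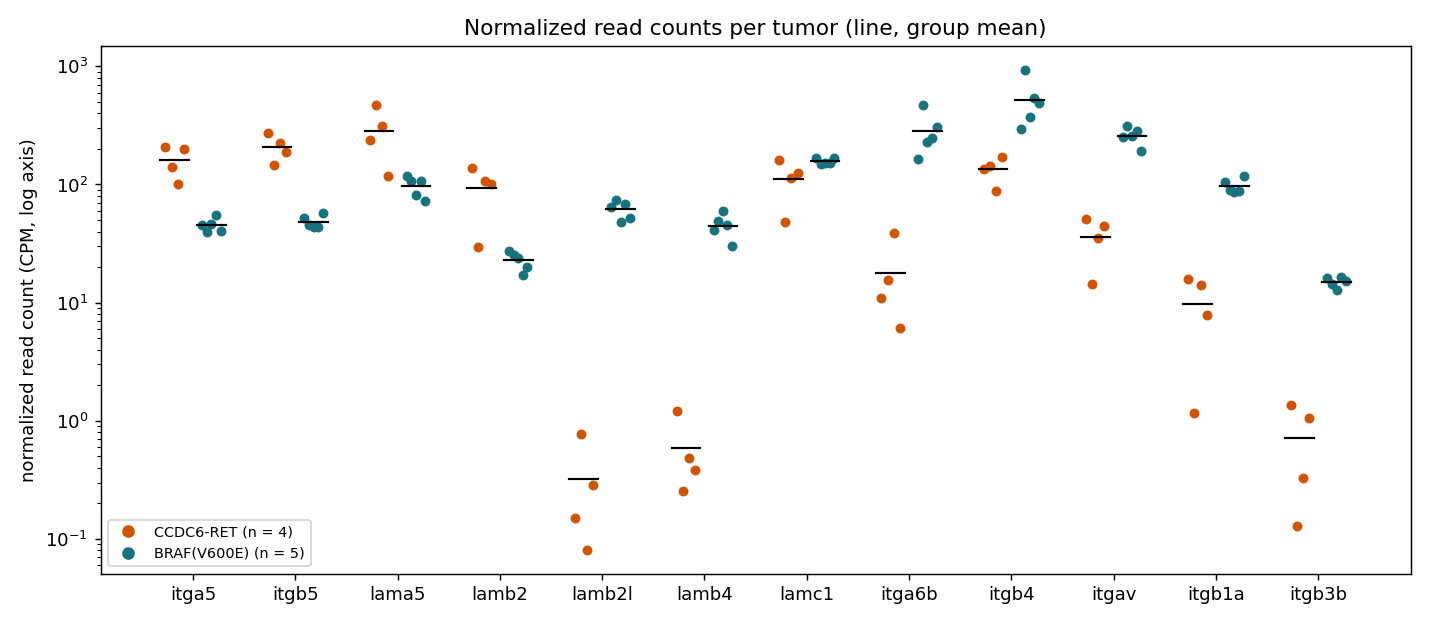
Normalized read count (CPM, log axis) of 12 integrin and laminin genes in each CCDC6-RET tumor (orange, n = 4) and BRAF(V600E) tumor (teal, n = 5), with lines at the group means. For itga5 and itgb5 all CCDC6-RET tumors lie at or above 101 CPM and all BRAF(V600E) tumors at or below 57.5 CPM, while for lamb2l no CCDC6-RET tumor exceeds 0.771 CPM and no BRAF(V600E) tumor is below 47.8 CPM.

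Of the collagen receptors 4 of 7 genes fell (57.1%, against 38.2% of all genes) and 3 were not called. itga2.2 had 0.982, 0.514, 0.65 and 1.14 CPM in CCDC6-RET tumors, against 32.8, 49.6, 28.1, 42.4 and 33.5 CPM in BRAF(V600E) tumors, at -5.46 ± 0.30 (SE, edgeR adjusted p = 1.25e-06). itga11a had 3.25, 8.48, 1.14 and 2.19 CPM in CCDC6-RET tumors, against 43.5, 15.2, 24.2, 20.3 and 34 CPM in BRAF(V600E) tumors, at -2.90 ± 0.57 (SE, edgeR adjusted p = 0.00122), or -3.62 without CCDC6-RET tumor 3. In mammals integrin alpha 2 binds collagen on epithelia and platelets, and alpha 11 on fibroblasts. The groups overlapped for neither. Fibroblast markers fell in 10 of 10 tested, against 38.2% of all genes. They held 0.0149% to 0.0804% of counts in CCDC6-RET tumors and 0.558% to 1.07% in BRAF(V600E) tumors. All were detected in at least 1 CCDC6-RET tumor, and their part was not tested. The other gene of that list, tcf21, was below the filter and lay the other way in most tumors, with 60.9, 8.73, 0.162 and 74.9 CPM in CCDC6-RET tumors, against 0.0731 to 0.538 CPM in BRAF(V600E) tumors. The row itga2.1 held 2 counts in CCDC6-RET and 116 counts in BRAF(V600E) libraries, a BRAF(V600E) level 41.2 times that of CCDC6-RET tumors (95% counting interval 11.1 to 344). The gene itga1 had 32.5 to 94.2 CPM in CCDC6-RET tumors and 90.5 to 143 CPM in BRAF(V600E) tumors, overlapping ranges and the smallest of the called falls (-0.80 ± 0.28 SE, edgeR adjusted p = 0.0281). That call missed the threshold without CCDC6-RET tumor 3 (-0.79, adjusted p = 0.0524 by edgeR), BRAF(V600E) tumor 1 (-0.77, adjusted p = 0.0525) or BRAF(V600E) tumor 2 (-0.75, adjusted p = 0.056). Not called were itga10 (-1.56 ± 0.71), itga11b (0.33 ± 0.67) and itga2.3 (-0.57 ± 0.73), whose CCDC6-RET values spread widely, from 3.98 to 54.6 CPM for itga10. Without CCDC6-RET tumor 6, itga2.3 stood at -1.22. Without CCDC6-RET tumor 2, itga10 passed as lower (-2.30, adjusted p = 0.0185 by edgeR). It also passed as lower under ribosomal protein scaling (-2.01, adjusted p = 0.0393 by edgeR), by DESeq2 (-1.67, adjusted p = 0.0264) and by limma-voom (-2.14, adjusted p = 0.0163).

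Integrins of leukocytes and their contacts gave 4 lower genes of 7 tested (57.1%, against 38.2% of all genes) and 3 not called. itgae.2 had 0.68, 1.16, 0.487 and 1.43 CPM in CCDC6-RET tumors, against 38.1, 53.6, 51.3, 53 and 41.3 CPM in BRAF(V600E) tumors, at -5.68 ± 0.31 (SE, edgeR adjusted p = 1.34e-06). itgb7 had 1.06, 0.899, 0.0812 and 1.05 CPM in CCDC6-RET tumors, against 22.3, 24.9, 30.5, 33.3 and 20.6 CPM in BRAF(V600E) tumors, at -5.09 ± 0.48 (SE, edgeR adjusted p = 1.54e-05). In mammals integrins alpha E and beta 7 pair on lymphocytes in epithelia and bind E-cadherin. Neither gene's groups overlapped. The row itgae.1, which shares 17154 bases of chromosome 15 with itgae.2, averaged 10.8 ± 5.46 CPM in CCDC6-RET tumors and 5.49 ± 2.99 CPM in BRAF(V600E) tumors (SD, n = 4 and 5) and was not called (0.96 ± 0.49 SE, edgeR adjusted p = 0.1), so reads may have been divided between the rows here too. It passed as higher without CCDC6-RET tumor 5 (1.25, adjusted p = 0.0277 by edgeR) or BRAF(V600E) tumor 2 (1.29, adjusted p = 0.0386). The genes itgam and itga9 fell, the first with 0 to 1.54 CPM in CCDC6-RET tumors and 3.56 to 9.42 CPM in BRAF(V600E) tumors (-3.98 ± 0.89 SE, edgeR adjusted p = 0.00258, or -6.06 without CCDC6-RET tumor 3). For itga9 the range was 0.0812 to 2.76 CPM in CCDC6-RET tumors and 7.06 to 11.4 CPM in BRAF(V600E) tumors (-2.86 ± 0.64 SE, edgeR adjusted p = 0.00263, or -3.65 without CCDC6-RET tumor 6). Integrin alpha M belongs to myeloid cells, and alpha 9 binds tenascin and VCAM.

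Leukocyte markers fell in 14 of 15 tested (93.3%, against 38.2% of all genes) and rose in 1 (6.67%, against 33.9%). They held 0.0207% to 0.0715% of counts in CCDC6-RET tumors and 0.46% to 0.59% in BRAF(V600E) tumors. Each had counts in at least 1 CCDC6-RET tumor. The gene itgb2, for the beta chain shared by leukocyte integrins, was not called. itgb2 had 7.25, 48.6, 9.58 and 41.2 CPM in CCDC6-RET tumors, against 60.2, 52.7, 53.1, 63 and 44.8 CPM in BRAF(V600E) tumors, at -1.05 ± 0.52 (SE, edgeR adjusted p = 0.0977). CCDC6-RET tumor 3 lay within the BRAF(V600E) range, CCDC6-RET tumor 6 just below it and CCDC6-RET tumors 2 and 5 far below it. Without CCDC6-RET tumor 3 the gene passed as lower (-1.49, adjusted p = 0.0321 by edgeR). It also passed as lower under ribosomal protein scaling (-1.74, adjusted p = 0.00677 by edgeR) and by limma-voom (-1.64, adjusted p = 0.0115). The gene itga4, a VCAM receptor of leukocytes, was not called either (-0.81 ± 0.64 SE, edgeR adjusted p = 0.279). itga4 had 4.83, 0.642, 0.406 and 5.14 CPM in CCDC6-RET tumors, against 5.02, 5.27, 4.43, 5.48 and 4.24 CPM in BRAF(V600E) tumors. Thus CCDC6-RET tumors 2 and 6 lay within the range of BRAF(V600E) tumors and CCDC6-RET tumors 3 and 5 below it. The part of leukocyte RNA in these values was not tested.

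Shares of integrin counts were read within each tumor too. Besides the members, alpha counts included the row si:dkey-32n7.4, named itgam.1 in the reference. Beta counts included the row CABZ01058720.1. The share of integrin alpha counts held by itga5 was 36.5% ± 10.6 in CCDC6-RET tumors and 4.38% ± 0.849 in BRAF(V600E) tumors (SD, n = 4 and 5). For itgb5 the share of integrin beta counts was 49.8% ± 9.36 in CCDC6-RET tumors and 4.69% ± 1.25 in BRAF(V600E) tumors. For itgav the share of alpha counts was 7.95% ± 3.15 in CCDC6-RET tumors and 24.6% ± 3.31 in BRAF(V600E) tumors. For itga6b it was 4.03% ± 3.11 in CCDC6-RET tumors and 26.3% ± 7.56 in BRAF(V600E) tumors. For none of these did the groups overlap. For itgb4 the share of beta counts was 32.4% ± 8.31 in CCDC6-RET tumors and 46.4% ± 9.96 in BRAF(V600E) tumors, and the groups overlapped. Shares did not always run with the fold changes. For itga1, which was called lower, the share of alpha counts was 15.9% ± 5.75 in CCDC6-RET tumors and 11.6% ± 1.46 in BRAF(V600E) tumors, with overlap, and the mean shares of itgb2, itga4 and itga2.3, which were not called, were also higher in CCDC6-RET tumors at fold changes below 0. These shares, like those of laminin chains, mix gene lengths and were compared only between tumors.

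Zebrafish carry 2 or more copies of several subunit genes, and their rows were not always called alike. Both copies fell for itga6, itgb3 and lamb1, as did the 3 itgb1 rows. For itga11 (-2.90 ± 0.57 for a, 0.33 ± 0.67 for b), itga3 (0.35 ± 0.46 for a, 1.32 ± 0.47 for b) and itgae (0.96 ± 0.49 for itgae.1, -5.68 ± 0.31 for itgae.2) 1 row was called and the other was not. The itga3 estimates had the same sign, and the itgae rows overlap on the chromosome as given above. The differences between copies were not tested. Reads of near-identical stretches may have been credited to either copy.

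Genes for proteins that join integrins to the cytoskeleton moved in both directions. Of 38 tested adaptors and kinases 18 fell (47.4%, against 38.2% of all genes) and 7 rose (18.4%, against 33.9%), with a median log2 fold change of -0.75. The smallest p-values were of tensins, which bind integrin beta tails, and vinculin, which ties talin to actin. tns2b had 0.453, 0.514, 0.325 and 0.0952 CPM in CCDC6-RET tumors, against 33.9, 28.3, 47.5, 33.4 and 36.5 CPM in BRAF(V600E) tumors, at -6.67 ± 0.35 (SE, edgeR adjusted p = 1.13e-06). vcla had 0.453, 1.03, 1.14 and 0.571 CPM in CCDC6-RET tumors, against 26.8, 29.6, 24.3, 30.1 and 24.6 CPM in BRAF(V600E) tumors, at -5.09 ± 0.28 (SE, edgeR adjusted p = 1.34e-06). Lower too were tns1b (-4.28 ± 0.44) and tns2a (-2.49 ± 0.31). The second vinculin gene, vclb, and tns3.2 rose (0.69 ± 0.16 and 1.54 ± 0.26), as did tln2b, lims1, lims2, rap1aa and rap1b. The talin gene tln1, whose product switches integrins on, was not called (-0.13 ± 0.18 SE, edgeR adjusted p = 0.539), nor was ilk (0.49 ± 0.21 SE, edgeR adjusted p = 0.0595), a kinase-like link to actin. The first passed as lower under ribosomal protein scaling (-0.68, adjusted p = 0.0175 by edgeR), and the second as higher without CCDC6-RET tumor 3 (0.60, adjusted p = 0.0378) or 5 (0.61, adjusted p = 0.0278). Under ribosomal protein scaling 2 of these 38 genes were called higher, and vclb was not (0.14, adjusted p = 0.567 by edgeR).

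Among 29 tested partners of laminin in the basement membrane 16 fell (55.2%, against 38.2% of all genes) and 3 rose (10.3%, against 33.9%). Their median log2 fold change was -1.23. The collagen XVIII gene col18a1a (col18a1 in the file) had 1269.9, 939, 1013 and 760.3 CPM in CCDC6-RET tumors, against 127, 146, 127, 129 and 106 CPM in BRAF(V600E) tumors, at 2.97 ± 0.17 (SE, edgeR adjusted p = 1.34e-06). A further row of that family, matched as col18a1b, fell (-4.51 ± 0.36). Perlecan (hspg2) and col4a1, a collagen IV chain, also rose (1.56 ± 0.36 and 1.61 ± 0.38), with overlapping groups. For hspg2 CCDC6-RET tumor 3, at 77.2 CPM, lay within the BRAF(V600E) range of 65.7 to 90.5 CPM. For col4a1 CCDC6-RET tumor 5, at 139.5 CPM, lay within that of 87.4 to 159.6 CPM. The other 5 tested collagen IV genes fell, among them col4a5 (-3.04 ± 0.43). The call of col4a2 (-1.16 ± 0.47 SE, edgeR adjusted p = 0.0469) ended without CCDC6-RET tumor 3 or 5 or any single BRAF(V600E) tumor, with edgeR adjusted p between 0.0551 and 0.0995. Of the Fraser complex, which anchors the skin, frem2b had 1.14 to 2.86 CPM in CCDC6-RET tumors and 25.5 to 35.9 CPM in BRAF(V600E) tumors (-4.03 ± 0.28 SE, edgeR adjusted p = 3.07e-06) and fras1 had 0.19 to 3.41 CPM in CCDC6-RET tumors and 30.9 to 66 CPM in BRAF(V600E) tumors (-4.92 ± 0.63 SE, edgeR adjusted p = 8.33e-05, or -5.79 without CCDC6-RET tumor 5). Nidogens, which bridge laminin and collagen IV, were not called in any of 4 genes.

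Of 8 hemidesmosome genes, which hold the anchors below itgb4, 6 fell (75.0%, against 38.2% of all genes) and 1 rose (12.5%, against 33.9%). The median log2 fold change was -1.43. col17a1a had 4, 1.28, 1.38 and 2 CPM in CCDC6-RET tumors, against 328, 367, 245, 235 and 218 CPM in BRAF(V600E) tumors, at -6.97 ± 0.41 (SE, edgeR adjusted p = 1.74e-06). col17a1b had 7.47, 1.93, 0.487 and 2.48 CPM in CCDC6-RET tumors, against 225, 494, 296, 327 and 198 CPM in BRAF(V600E) tumors, at -6.61 ± 0.73 (SE, edgeR adjusted p = 3.67e-05), or -7.56 without CCDC6-RET tumor 2. Collagen XVII spans the membrane beside beta 4. Of 2 anchoring fibril genes, col7a1l fell as well (-1.81 ± 0.38). The other, col7a1, had 0.325 to 15.3 CPM in CCDC6-RET tumors and 46.8 to 87.5 CPM in BRAF(V600E) tumors (-3.46 ± 0.76). The gene cd151l, for a tetraspanin partner of laminin-binding integrins, rose (1.41 ± 0.16). The 2 plectin genes fell by less, at -0.66 ± 0.16 for pleca and -1.06 ± 0.28 for plecb. Most epidermal markers moved with the list as given above.

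The dystroglycan complex is the other laminin receptor of muscle and epithelia. Of 15 tested genes 9 fell (60.0%, against 38.2% of all genes) and 2 rose (13.3%, against 33.9%), at a median of -1.58. The core gene dag1 was not called (0.05 ± 0.11 SE, edgeR adjusted p = 0.687) and had 82.8 to 102 CPM in CCDC6-RET tumors and 78.5 to 99.2 CPM in BRAF(V600E) tumors. Under ribosomal protein scaling it passed as lower (-0.52, adjusted p = 0.0118 by edgeR). The genes sgca (-6.19 ± 0.42 SE, edgeR adjusted p = 2.83e-06) and sgcg (-5.56 ± 0.50 SE, edgeR adjusted p = 1.11e-05), for sarcoglycans of muscle, fell. The muscle caveolin gene cav3 held 2 counts in CCDC6-RET and 1463 counts in BRAF(V600E) libraries, a BRAF(V600E) level 519 times that of CCDC6-RET tumors (95% counting interval 143 to 4292). The dystrobrevin gene dtnba rose (1.63 ± 0.18 SE, edgeR adjusted p = 2.97e-05). Muscle markers, of which 20 of 20 fell and a row of myhz1.1 was without counts in CCDC6-RET tumors, moved with them, and their part was not tested.

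Ligands of integrins other than laminin gave 9 lower genes of 16 tested (56.2%, against 38.2% of all genes). Higher were 4 (25.0%, against 33.9%), and the median was -2.20. postna had 3.32, 3.72, 0.893 and 4.95 CPM in CCDC6-RET tumors, against 229.5, 235, 171, 196 and 175 CPM in BRAF(V600E) tumors, at -5.97 ± 0.44 (SE, edgeR adjusted p = 4.21e-06). tnc had 0.755, 1.03, 0 and 0.476 CPM in CCDC6-RET tumors, against 34.7, 16.9, 19, 20.7 and 46.5 CPM in BRAF(V600E) tumors, at -5.65 ± 0.67 (SE, edgeR adjusted p = 5.48e-05). Periostin and tenascin-C are matrix proteins of connective tissue, and the tested fibroblast markers given above fell as well. Both fibronectin genes, ligands of alpha 5 beta 1, fell. For fn1b the range was 80 to 225 CPM in CCDC6-RET tumors and 399 to 998 CPM in BRAF(V600E) tumors (-2.23 ± 0.37 SE, edgeR adjusted p = 0.000409), and for fn1a it was 5.77 to 158 CPM in CCDC6-RET tumors and 197 to 405 CPM in BRAF(V600E) tumors (-2.24 ± 0.80 SE, edgeR adjusted p = 0.0286). The call of fn1a ended without CCDC6-RET tumor 2 or 3 (edgeR adjusted p = 0.0649 and 0.0522) or BRAF(V600E) tumor 1 or 2 (0.053 and 0.0509), and its fold change was -3.15 without CCDC6-RET tumor 6. Of the 4 that rose, mfge8b had 229 to 661 CPM in CCDC6-RET tumors and 15.7 to 25.1 CPM in BRAF(V600E) tumors (4.37 ± 0.34 SE, edgeR adjusted p = 5.64e-06). It encodes a secreted RGD protein that in mammals binds alpha v beta 5. A row of ltbp1, a carrier of latent TGF-beta, rose too (4.65 ± 0.73 SE, edgeR adjusted p = 0.00032, or 3.55 without CCDC6-RET tumor 3), while a second row of that name did not pass. The study chose its signature on these same tumors at log2 fold changes above 4, a size that mfge8b and the risen ltbp1 row reached here. The rise of these genes is therefore not independent evidence.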

How the data were processed

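The deposited table held whole-number counts per gene that the authors made from TruSeq libraries, after alignment to GRCz10 with STAR (per the submitters' processing notes release 2.3, though the study's methods name a later one). How reads were counted, whether by strand and on which annotation are not given in the sources used here. The table also held the authors' size-factor normalized values (a signal), and the authors' DESeq2 log2 fold changes, Wald score and p-values, which were not used. The deposited counts were tested with edgeR 4.0.16 (limma 3.58.1, R 4.3.3): filterByExpr with a minimum count of 10 left 18453 of 27158 genes, scaled with TMM and compared by a robust quasi-likelihood F test, CCDC6-RET minus BRAF(V600E), with no covariate. A gene was called at an adjusted p (Benjamini-Hochberg, over all tested genes) under 0.05, and a standard error is the log2 fold change over the root of F. CPM are counts divided by the scaled library size in units of 1e+06. Intervals cover counting error only.

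Members, lists and tests were chosen with earlier results of these data known. Values in every library are given for members that had an adjusted p under 0.05, an absolute log2 fold change of 1 or more and a mean of at least 10 CPM in the higher group, or that belonged to integrin beta 1, the hemidesmosome receptor or a fixed set of laminin chains. These were 30 members, of which 1 is not reported here by name. Of the others some are named after their values were seen, and itgb2 and itga4 are given in full for that reason. Of each of 5 lists of adhesion genes, those with the 4 smallest p-values are named, with others chosen after their values were seen, and 11 lists of cell type markers stand beside the results. Names of 3 further rows came from NCBI's current gene names. Since no label ties the libraries to separate fish, p-values measure only the spread between these samples, which may be technical. The steps were tested on simulated data in which few genes changed. That setting differs from these data, where most genes were called, so scaling and error rates were not checked for such a case. Alternatives were DESeq2 1.42.0 size factors, DESeq2 itself, limma-voom, ribosomal protein scaling, no filter, a replicate block and leaving out each library.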

Additional observations from a re-analysis of the deposited data

Results flagged for a closer look

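In 80 groups of 4 or 5 values, 1 for each genotype and gene given in every library, chance marks about 1 in 20. In 3 of them a single tumor stood far from the others, with a gap to its nearest neighbor above Dixon's limit as a share of the group's range. For itga2b, BRAF(V600E) tumor 1 was highest at 57.3 CPM (gap of 0.803 of the range). The summed thrombocyte markers were highest there too, at 0.142% of counts, through f13a1b (1183 CPM), while 5 of 7 tested markers were highest in BRAF(V600E) tumor 7. For itgb7, CCDC6-RET tumor 5 was lowest at 0.0812 CPM (0.838 of the range). For the row named lamb3 in the reference, CCDC6-RET tumor 2 was highest at 1.21 CPM (0.921 of the range).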

How the results depend on the processing

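Of 36 called members 30 kept their call and direction under every alternative that gave a value, and the rest are named with their values in the report, apart from limma-voom and the fits on shared replicate numbers. Higher integrin genes numbered 2, against 4, under ribosomal protein scaling, limma-voom, the replicate block and the same 6 libraries without the block, and 2 to 4 with 1 library left out. Lower integrin genes numbered 19 to 21 and laminin genes stayed at 3 higher and 9 lower with 1 library left out. Higher adaptors numbered 2, against 7, under ribosomal protein scaling, and higher dystroglycan genes 1, against 2, with DESeq2 size factors, ribosomal protein scaling, the block and the 6 libraries without it. Ribosomal protein scaling left 3067 genes higher and 8910 lower of all genes, against 6255 and 7043. The sign of itga11b (0.33) turned under ribosomal protein scaling (-0.16), under limma-voom (-0.25), without CCDC6-RET tumor 2 (-0.08) and without CCDC6-RET tumor 6 (-0.03), with -0.08 to 0.71 as the range over single libraries left out. That of itga3a (0.35) turned under ribosomal protein scaling (-0.29), limma-voom (-0.02), the replicate block (-0.34) and the 6 libraries without it (-0.03). Those of ilk (0.49) and dag1 (0.05) turned under ribosomal protein scaling (-0.08 and -0.52), that of dag1 also with DESeq2 and its size factors (-0.05 each), and with 1 library left out dag1 ranged over 0.00 to 0.12 and tln1 (-0.13) over -0.30 to 0.01. The cause was not tested.

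Replicate numbers 2, 3 and 6 occur in both groups. Deviations of same-numbered libraries correlated at 0.0334, 0.00765 and -0.041, not every library correlated best with its own number, and the labels give no pairing, so the numbers were not taken to pair tumors. Under the replicate block 5 called members lost their call: itga3b (0.55, adjusted p = 0.257 by edgeR), itgb8 (1.31, adjusted p = 0.215), itga1 (-0.95, adjusted p = 0.115), itga6a (-2.15, adjusted p = 0.0725) and lama5 (1.27, adjusted p = 0.087), and 3 did so in the same 6 libraries without it. Of the other adhesion genes given with a call, hspg2 (1.29, adjusted p = 0.107 by edgeR), col4a2 (-1.14, adjusted p = 0.0844), pleca (-0.64, adjusted p = 0.0885) and fn1a (-2.27, adjusted p = 0.0658) lost theirs under the block, and all of these but hspg2 did so in the same 6 libraries without it. Levels per coding length were not run, for want of lengths, so levels of different genes were not ranked.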
